A study of Mus with 4 samples.

Results

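The genes described here encode the extracellular matrix of scar and of basement membrane, together with the enzymes that crosslink it, cleave it or inhibit its cleavage. They are 36 of the 54532 genes in the deposited count table, and they were chosen by identifier: collagens I, III, IV, V, VI, XV and XVIII, laminins, nidogen, perlecan, fibronectin and other matrix glycoproteins, elastic fibre proteins, proteoglycans, lysyl oxidases, and metalloproteinases with their inhibitors. All 36 passed the filter on low counts. The table gives Ensembl identifiers and no gene symbols, and no reference table used here pairs the 2, so each symbol below was attached from knowledge of its identifier and stands beside it at its first mention.

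The RNA came, per the labels, from liver sinusoidal endothelial cells (LSECs), the fenestrated endothelium of the liver sinusoid, of mice given the liver toxin carbon tetrachloride (CCl4). The control group (CTL) and the Pofut1 knockout group (P1KO) hold 2 libraries each, and both groups received CCl4, so that no uninjured liver serves as a baseline. The series title places the deletion in the endothelium. The driver of the deletion, the strain, age and sex of the mice, the dose and timing of CCl4, and whether libraries stand for separate animals are not stated in the labels. P-values therefore reflect the variation among these 4 libraries, which may be technical.

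After toxic injury, hepatic stellate cells turn into myofibroblasts and lay down fibrillar collagen, while the sinusoid, which normally lacks a continuous basement membrane, can acquire one as its endothelium becomes capillary-like. Collagen IV, laminin, nidogen and perlecan build the basement membrane, lysyl oxidases crosslink collagen and elastin, and the balance of matrix metalloproteinases and their tissue inhibitors sets how fast matrix is removed. POFUT1 is the fucosyltransferase that modifies the EGF-like repeats of Notch receptors and other proteins, and the comparison asks how the matrix genes of the LSEC preparations differ when it is lost.

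The libraries held between 17464769 and 17918834 counts. Pofut1 (ENSMUSG00000046020) had 982 reads in CTL1 and 1091 in CTL2, against 476 in KO1 and 323 in KO3, a log2 fold change of -1.37 ± 0.16 (SE) in the direction of the labels (edgeR adjusted p = 0.00169, but 0.0752 without CTL1 and 0.0912 without CTL2). The sum of 10 endothelial markers was between 2.02% and 2.52% of all counts, and Stab2, the hyaluronan receptor of LSECs, lay between 2715 and 4782 CPM (reads scaled for library size). In contrast, 7 heart muscle genes, checked because the labels' extraction protocol mentions heart ventricles as its source, summed to 23 to 40 reads per library, with 2 reads of Myh6 in KO1 and 0 in the others (a count of 0 allows up to 3 counts). Transcripts of other liver cells were present in all libraries: Alb of hepatocytes lay between 662 and 687 CPM, Lrat of stellate cells between 20.8 and 42.8 CPM, and Clec4f of Kupffer cells between 3.25 and 54.8 CPM. In such bulk samples, fewer cells of a type and less RNA per cell cannot be told apart. The CTL libraries resembled each other far more than the P1KO libraries did, with biological coefficients of variation of 3.23% and 12.1%, and both pairs differed by more than sampling noise (chi-square per gene of 2.07 and 10, where noise gives 1).

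In P1KO, basement membrane genes and Sparc were mostly higher, whereas elastin, 3 fibrillar collagen chains, Timp1, Timp3, Lox and Mmp9 were lower. Of the 36 genes, 10 were called higher and 12 lower, and 14 did not pass (edgeR quasi-likelihood test on all 15510 tested genes, Benjamini-Hochberg adjusted p below 0.05). Over all tested genes 19.5% were called, 9.68% higher and 9.84% lower, against 22 of 36, or 61.1%, here. The 36 genes were chosen with earlier results of these data known, so the difference between these shares is a description and was not tested. These genes had between 110 and 99191 reads per library. The changes were small: the median of the called rises was 1.25-fold and that of the called falls 1.56-fold, 1 rise and 6 falls reached 1.5-fold, and 0 rises and 2 falls reached 2-fold. The median log2 change over the 36 genes was -0.07, beside -0.008 over all tested genes, with 18 genes above and 18 below 0, and the median absolute change was 0.31 beside 0.22. For 27 of the 36 the groups did not overlap, which was true of 62.6% of all tested genes.

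Nearly all of these calls depended on the CTL libraries being so close. Without CTL1 or without CTL2, when the spread comes from the P1KO libraries, 1 of the 36 was called, and it was Eln in both fits. The other 21 kept their direction, with edgeR adjusted p-values between 0.0533 and 0.389. Without KO1 or without KO3 all 22 stayed called, with the spread taken from the CTL pair alone. Over all genes, 0.69% were called with all 4 libraries and again whenever any 1 of them was omitted.

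**Figure D1:**
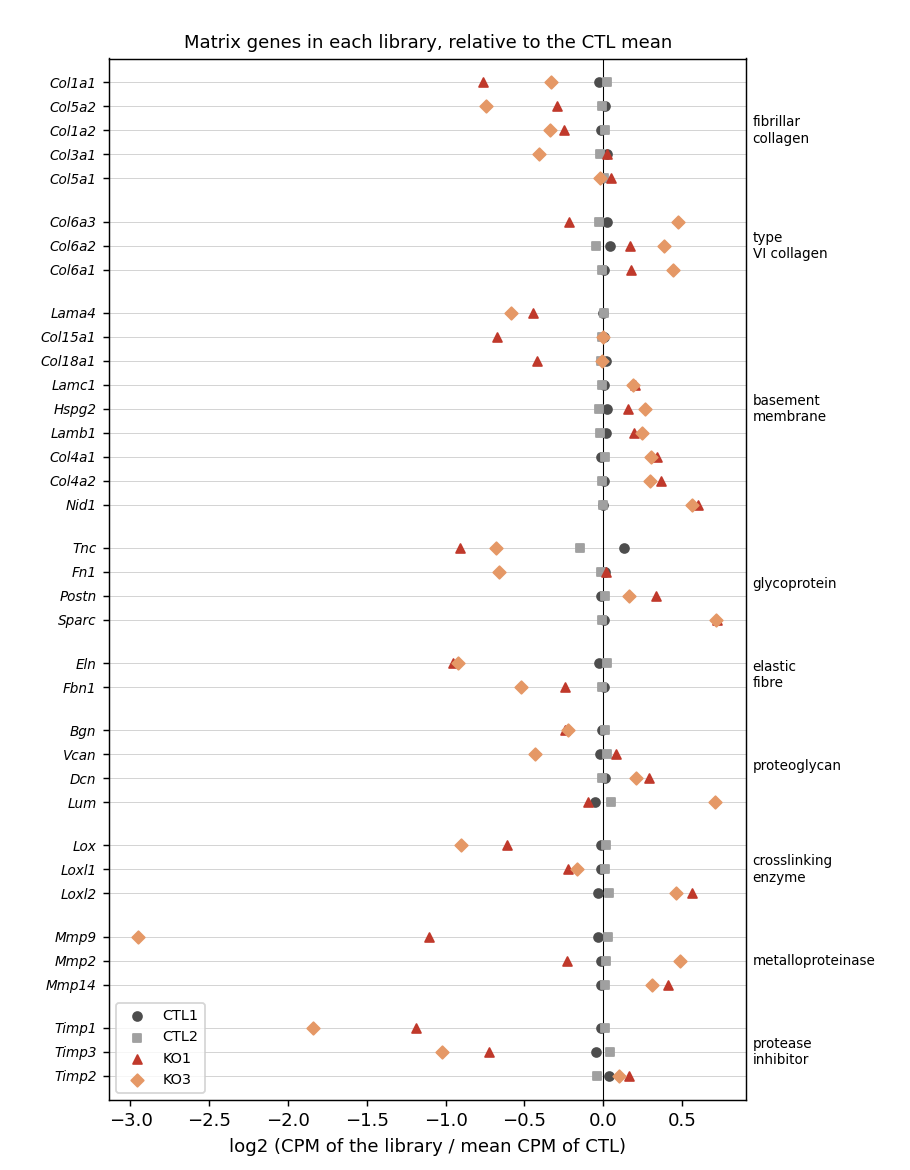
Level of each of the 36 matrix genes in each library, as log2 of its CPM over the mean CPM of the 2 CTL libraries (horizontal axis), grouped by role. The CTL points sit within a narrow band around 0, widest for Tnc, and the P1KO points lie left of it for Eln, Timp1, Timp3, Lox and Mmp9 and right of it for Sparc, Nid1, Col4a1, Col4a2 and Loxl2.

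**Figure D2:**
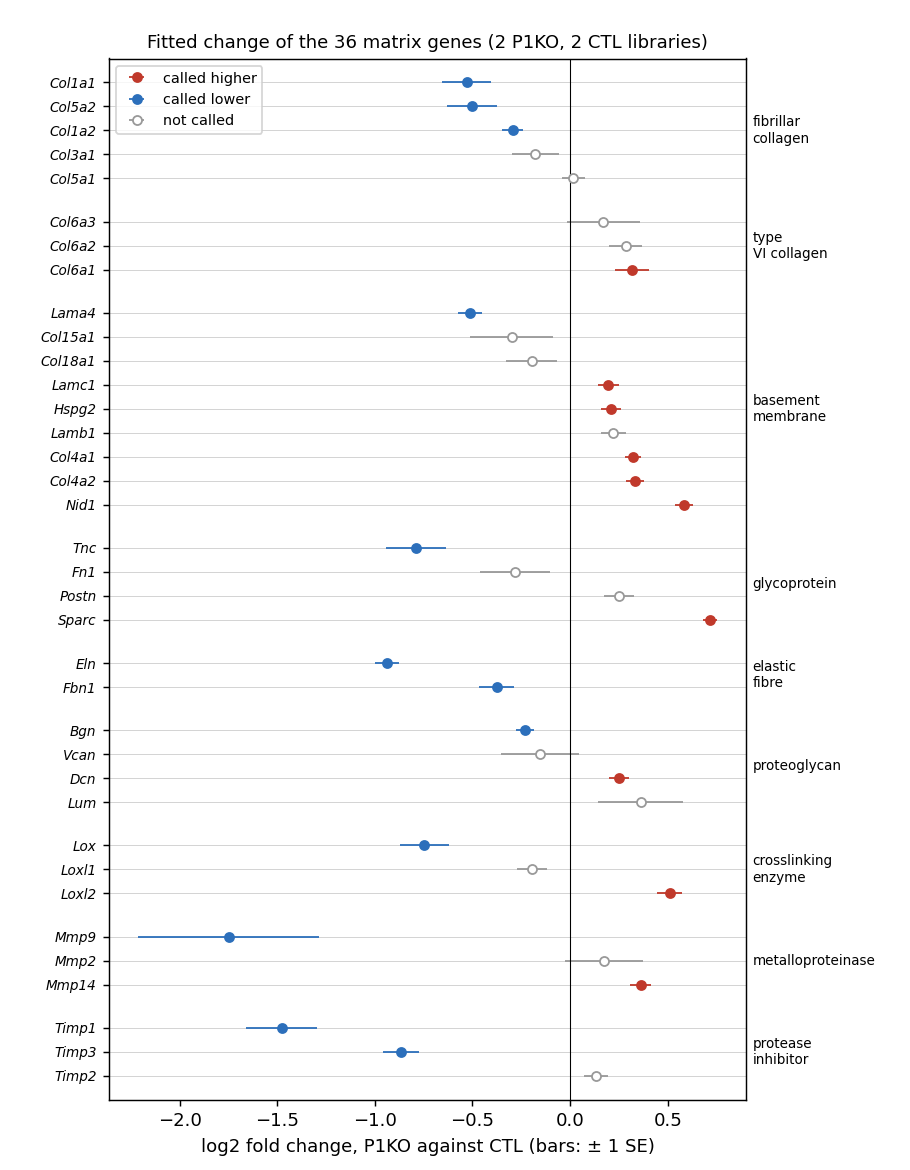
Fitted log2 fold change of P1KO against CTL for the 36 genes, with bars of 1 standard error and n = 2 libraries per group. Filled points are the 10 genes called higher (red) and the 12 called lower (blue), and open points are the 14 that did not pass.

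Fibrillar collagens, the rope-like proteins of scar, fell or showed no call. Col1a1 (ENSMUSG00000001506), the main chain of type I collagen, stood at 253 CPM in CTL1 and 261 in CTL2, and at 151 in KO1 and 205 in KO3. Both P1KO libraries were below both controls, KO1 the lower of them, and the log2 fold change was -0.53 ± 0.13 (SE, edgeR adjusted p = 0.0243). Its partner chain Col1a2 (ENSMUSG00000029661) fell less, from 435 and 444 CPM to 369 in KO1 and 347 in KO3, by 0.29 ± 0.05 (SE) on the log2 scale (edgeR adjusted p = 0.00997). Col5a2 (ENSMUSG00000026042), a chain of the type V collagen that nucleates fibrils, was at 183 and 181 CPM in CTL, 148 in KO1 and 109 in KO3, with a log2 fold change of -0.50 ± 0.13 (SE, edgeR adjusted p = 0.032). Here KO3 was the lower library, the reverse of Col1a1.

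The remaining fibrillar chains gave no call. Col3a1 (ENSMUSG00000026043), the type III collagen of early scar, had 784 and 760 CPM in CTL and 784 in KO1, but 581 in KO3 (log2 fold change -0.18 ± 0.12 SE, edgeR adjusted p = 0.348). Col5a1 (ENSMUSG00000026837), the other type V chain of the 36 genes, stayed between 98.0 and 103 CPM in all 4 libraries (edgeR adjusted p = 0.88). The 5 chains thus did not move by a common factor: 3 were called lower, and the groups overlapped for 2. The 3 calls were lost without either CTL library (edgeR adjusted p between 0.183 and 0.259). Col1a1 and Col5a2 were also not called without the filter on low counts, and Col1a1 not by DESeq2.

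Type VI collagen, whose 3 chains assemble into beaded microfilaments around cells, had 1 chain called higher. Col6a1 (ENSMUSG00000001119) was at 119.6 and 118 CPM in CTL, 135 in KO1 and 162 in KO3, and was called higher by 0.32 ± 0.09 (SE) on the log2 scale (edgeR adjusted p = 0.0446). Col6a2 (ENSMUSG00000020241) had 101 and 94.8 CPM in CTL against 110.4 and 128 in P1KO, just outside the threshold (edgeR adjusted p = 0.0508). Col6a3 (ENSMUSG00000048126) had 65.3 and 62.9 CPM in CTL, but 55.2 in KO1 and 89.2 in KO3, on either side of the controls. The Col6a1 call was lost without CTL1 (edgeR adjusted p = 0.313), without CTL2 (edgeR adjusted p = 0.332), with library totals in place of TMM scaling, and without the filter on low counts. Col6a2 passed with DESeq2 size factors and in limma-voom, but not in DESeq2, with library totals or without the filter on low counts. For all 3 chains KO3 was the higher knockout library.

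Basement membrane components rose in larger number, with 5 of 9 called higher, 1 lower and 3 not called. Nid1 (ENSMUSG00000005397) encodes nidogen, which links the laminin and collagen IV networks. It had 701 CPM in CTL1 and 703 in CTL2, against 1064 in KO1 and 1038 in KO3, so that the pairs were tight and well apart, with a log2 fold change of 0.58 ± 0.05 (SE, edgeR adjusted p = 0.000327). The chains of the common collagen IV trimer moved alike. Col4a1 (ENSMUSG00000031502) went from 1675 and 1705 CPM to 2138 in KO1 and 2084 in KO3, a log2 fold change of 0.32 ± 0.04 (SE, edgeR adjusted p = 0.00241). For Col4a2 (ENSMUSG00000031503) the CTL values were 1118 and 1107 CPM and the P1KO values 1433 and 1370.

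Col4a2 had a log2 fold change of 0.33 ± 0.05 (SE, edgeR adjusted p = 0.00297), within 1 standard error of that of Col4a1. The RefSeq models of these genes adjoin on chromosome 8 of mm10, at 11198423 to 11312889 for Col4a1 and 11312805 to 11449287 for Col4a2, and share 85 bases at their ends. Hspg2 (ENSMUSG00000028763), which encodes the heparan sulfate proteoglycan perlecan, was at 1417 and 1371 CPM in CTL and at 1553 and 1673 in P1KO (log2 fold change 0.21 ± 0.05 SE, edgeR adjusted p = 0.0271). Lamc1 (ENSMUSG00000026478), the laminin gamma chain of most vascular laminins, rose from 179 and 178 CPM to 205 and 204, by 0.20 ± 0.05 on the log2 scale (SE, edgeR adjusted p = 0.0395). Lamb1 (ENSMUSG00000002900), the beta chain of the same trimers, had 51.9 and 50.5 CPM in CTL against 58.6 and 60.8 in P1KO. It missed the threshold narrowly (edgeR adjusted p = 0.0505). Lamb1 passed with DESeq2 size factors, but not in DESeq2 (DESeq2 adjusted p = 0.189) or limma-voom (limma-voom adjusted p = 0.0529). With library totals or without the filter on low counts it did not pass either.

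The laminin alpha chain of the set went the opposite way from its partner chains. Lama4 (ENSMUSG00000019846), the alpha chain of an endothelial laminin, had 261 CPM in CTL1 and 262 in CTL2, against 192 in KO1 and 174 in KO3. It was lower in P1KO by 0.51 ± 0.06 on the log2 scale (SE, edgeR adjusted p = 0.00204). Col15a1 (ENSMUSG00000028339) and Col18a1 (ENSMUSG00000001435), the multiplexin collagens of basement membrane zones, the second being the source of endostatin, were low in KO1 alone. Col15a1 had 12.6 and 12.5 CPM in CTL, 7.84 in KO1 and 12.5 in KO3, and Col18a1 had 38.0 and 37.2 in CTL, 28.1 in KO1 and 37.5 in KO3 (edgeR adjusted p = 0.371 and 0.332). Across the 6 called basement membrane genes the edgeR adjusted p-values without CTL1 or CTL2 ran from 0.0695 to 0.389. Lamc1 lost its call in DESeq2, and Lamc1 and Hspg2 lost theirs without the filter on low counts.

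Among the matrix glycoproteins, Sparc (ENSMUSG00000018593) had the largest called rise of the 36 genes. Sparc encodes osteonectin, a secreted collagen-binding protein, and lies on chromosome 11 of mm10 at 55394159 to 55420080. Its level was 3415 CPM in CTL1 and 3384 in CTL2, against 5615 in KO1 and 5572 in KO3. The libraries within each group differed little, and the log2 fold change was 0.72 ± 0.04 (SE, 1.65-fold, edgeR adjusted p = 5.78e-05). Without CTL1 the edgeR adjusted p was 0.0533 and without CTL2 0.0557. Sparc, Timp1 and Eln were the 3 of the 36 genes that passed against a minimum change of 1.5-fold.

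Tnc (ENSMUSG00000028364), tenascin C of injured tissue, was at 17.1 and 14.1 CPM in CTL, 8.30 in KO1 and 9.72 in KO3, lower by 0.79 ± 0.15 on the log2 scale (SE, edgeR adjusted p = 0.0124). Its call did not hold without CTL1 or CTL2 (edgeR adjusted p = 0.198 and 0.118). Fn1 (ENSMUSG00000026193), fibronectin, the provisional matrix protein onto which collagen is laid, had 1065 and 1049 CPM in CTL and 1069 in KO1, but 668 in KO3. The fall thus lay in KO3 alone, and the fitted log2 fold change of -0.28 ± 0.18 (SE) did not pass (edgeR adjusted p = 0.316). Postn (ENSMUSG00000027750), periostin, had 47.5 and 48.4 CPM in CTL against 60.4 and 53.7 in P1KO (edgeR adjusted p = 0.062).

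Elastic fibre genes were both lower. Eln (ENSMUSG00000029675), elastin, at chromosome 5, 134702595 to 134747368 of mm10, had 92.4 CPM in CTL1 and 96.0 in CTL2, against 48.6 in KO1 and 49.8 in KO3. Both knockout libraries lay close together and far below the controls, with a log2 fold change of -0.94 ± 0.06 (SE), 1.91-fold more in CTL (edgeR adjusted p = 0.000177). Eln alone of the 36 genes was called whichever library was omitted, with edgeR adjusted p-values of 0.0373 without CTL1 and 0.041 without CTL2. Fbn1 (ENSMUSG00000027204), fibrillin 1 of the microfibril scaffold of elastic fibres, fell from 91.0 and 90.3 CPM to 76.5 in KO1 and 63.2 in KO3, by 0.38 ± 0.09 on the log2 scale (SE, edgeR adjusted p = 0.0269). Fbn1 was not called without CTL1, without CTL2 (edgeR adjusted p = 0.234 and 0.229) or without the filter on low counts.

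Lysyl oxidases, which start the crosslinking of collagen and elastin, moved in different directions. Lox (ENSMUSG00000024529), the founding member, was at 22.6 and 23.1 CPM in CTL, 15.0 in KO1 and 12.2 in KO3, a log2 fold change of -0.75 ± 0.13 (SE, edgeR adjusted p = 0.00687). Loxl2 (ENSMUSG00000034205), known for crosslinking collagen IV, was at 86.1 and 90.4 CPM in CTL and at 130.2 and 121 in P1KO, a log2 fold change of 0.51 ± 0.07 (SE, edgeR adjusted p = 0.00227). Loxl1 (ENSMUSG00000032334), which acts on elastic fibres, had 35.6 and 36.3 CPM in CTL and 30.8 and 32.0 in P1KO, without a call (edgeR adjusted p = 0.122). Leaving out a CTL library removed the calls of Lox and Loxl2, with edgeR adjusted p-values between 0.0937 and 0.149.

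The small leucine-rich proteoglycans, which bind collagen fibrils, were divided as well. Bgn (ENSMUSG00000031375), biglycan, went from 1019.5 and 1033 CPM in CTL to 869 and 880.0 in P1KO, lower by 0.23 ± 0.04 on the log2 scale (SE, edgeR adjusted p = 0.0116). Dcn (ENSMUSG00000019929), decorin, its close relative, had 510.4 and 504 CPM in CTL and 620.5 and 586 in P1KO, a log2 fold change of 0.25 ± 0.05 (SE, edgeR adjusted p = 0.015). Lum (ENSMUSG00000036446), lumican, had 40.9 and 43.7 CPM in CTL, 39.6 in KO1 and 69.0 in KO3 (edgeR adjusted p = 0.296). Vcan (ENSMUSG00000021614), the large proteoglycan versican, was at 8.20 and 8.45 CPM in CTL, 8.81 in KO1 and 6.18 in KO3 (edgeR adjusted p = 0.64). Without a CTL library neither Bgn nor Dcn passed (edgeR adjusted p between 0.227 and 0.261).

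Of the metalloproteinases, Mmp9 (ENSMUSG00000017737), gelatinase B, had the largest fitted change of the 36 genes and the widest spread. It was at 296 CPM in CTL1 and 309 in CTL2, at 141 in KO1 and at 39.1 in KO3. Both knockout libraries were below the controls, but KO1 held 3.60 times the level of KO3. The log2 fold change was -1.75 ± 0.46 (SE, edgeR adjusted p = 0.037), -2.95 without KO1 and -1.10 without KO3. Mmp9 was not called without CTL1 (edgeR adjusted p = 0.253) or CTL2 (edgeR adjusted p = 0.261), in DESeq2 or without the filter on low counts.

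Mmp9 is stored in neutrophil granules, and neutrophil markers moved with it. The summed level of 9 such markers, listed after the values of Mmp9 had been seen, was 3094 CPM in CTL1 and 3035 in CTL2, against 1683 in KO1 and 451 in KO3, or 0.549 and 0.147 of the CTL mean. Mmp9 itself stood at 0.466 and 0.129 of its CTL mean, and Mmp8, the neutrophil collagenase, at 0.405 and 0.126. All 9 markers had fitted changes below 0, and 3 of them, Ly6g, Cxcr2 and Csf3r, were called lower, though none of the 3 without CTL1 or without CTL2. The part of neutrophil RNA in the Mmp9 result was not tested.

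The other metalloproteinases among the 36 genes did not follow Mmp9. Mmp14 (ENSMUSG00000000957), a membrane-bound collagenase that activates pro-MMP2, was at 472 and 482 CPM in CTL and at 635 and 590.1 in P1KO, a log2 fold change of 0.36 ± 0.05 (SE, edgeR adjusted p = 0.00456). This call too was lost without CTL1 or CTL2 (edgeR adjusted p = 0.172 and 0.154). Mmp2 (ENSMUSG00000031740), gelatinase A, a product of mesenchymal cells, had 35.7 and 36.4 CPM in CTL, 30.7 in KO1 and 50.5 in KO3, so that the groups overlapped (edgeR adjusted p = 0.593).

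Inhibitors of metalloproteinases fell where they were called. Timp1 (ENSMUSG00000001131), the inhibitor best known as a fibrosis marker, was at 35.1 CPM in CTL1 and 35.7 in CTL2, against 15.6 in KO1 and 9.89 in KO3. This was a log2 fold change of -1.48 ± 0.18 (SE), 2.78-fold more in CTL (edgeR adjusted p = 0.00205). Timp3 (ENSMUSG00000020044), which binds to the matrix and also inhibits ADAM proteases, had 735 and 779.7 CPM in CTL, 458 in KO1 and 373 in KO3, a log2 fold change of -0.87 ± 0.09 (SE, 1.82-fold more in CTL, edgeR adjusted p = 0.00114). Timp2 (ENSMUSG00000017466), which takes part in MMP14-dependent activation of pro-MMP2, had 118 and 112 CPM in CTL against 129 and 123 in P1KO (edgeR adjusted p = 0.177).

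Without CTL1 the edgeR adjusted p-values were 0.0924 for Timp1 and 0.0696 for Timp3, and without CTL2 they were 0.0963 and 0.083. In the RefSeq annotation Timp1 (chromosome X, 20870166 to 20874737 of mm10) lies wholly within the span of Syn1, and Timp3 (chromosome 10, 86300412 to 86349505) wholly within that of Syn3. These are overlaps of whole gene spans, and exons were not compared. The labels do not state whether counting used strand. Whether any reads of an inhibitor and its host gene were mixed is therefore not known. For Timp2 the nesting is the reverse, with the span of Cep295nl wholly within that of Timp2.

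**Figure D3:**
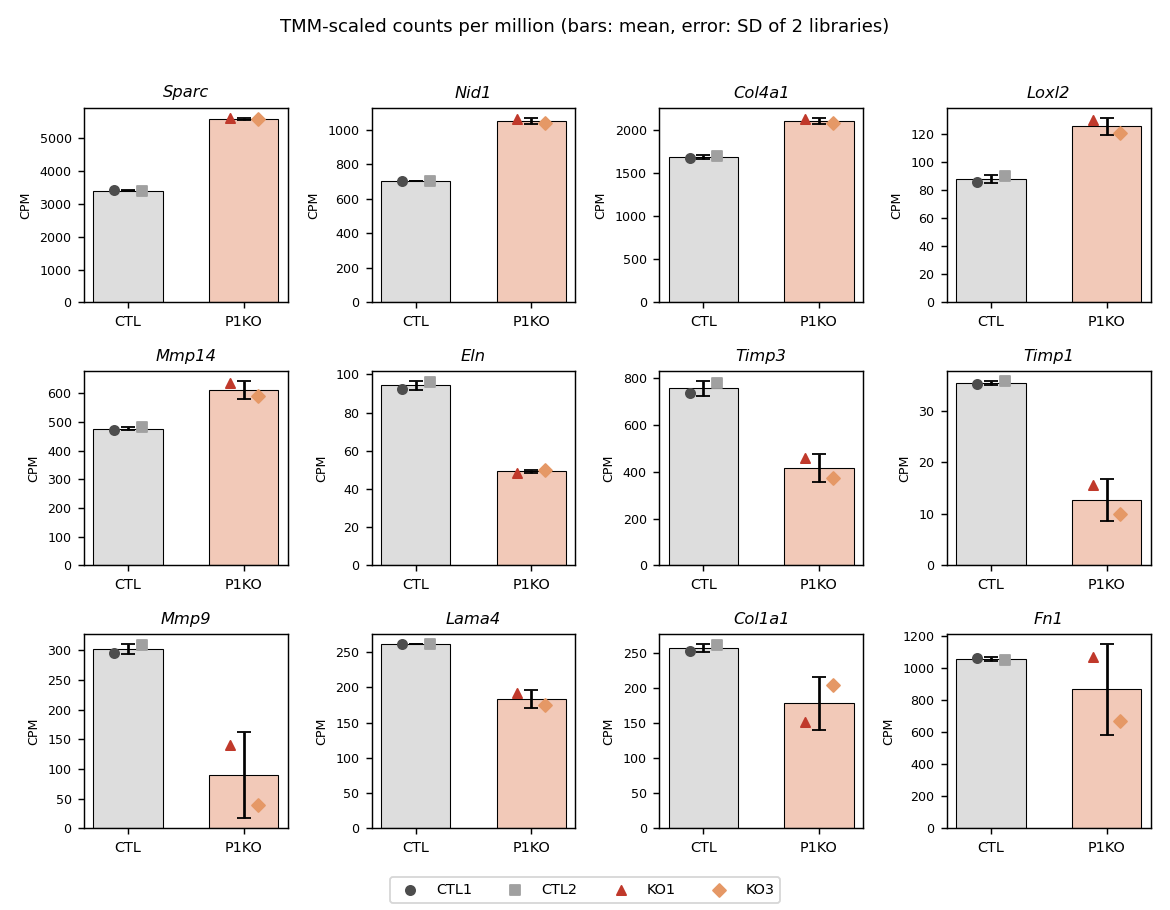
TMM-scaled CPM of 12 of the genes in each library, with bars for the mean of the 2 libraries of a group and error bars for their SD. Sparc, Nid1 and Eln show close pairs that are far apart between groups, whereas Mmp9 and Fn1 differ widely between KO1 (triangles) and KO3 (diamonds).

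Other genes of matrix assembly showed a similar division. Of 51 listed, 48 were tested, with 9 called higher, 7 lower and 32 not called, which is 33.3% called beside 19.5% of all genes. Their median log2 change was -0.02. Among enzymes of collagen processing, 3 of 12 were called and all 3 rose. They were P4ha1, a subunit of collagen prolyl 4-hydroxylase (log2 fold change 0.63 ± 0.07 SE, edgeR adjusted p = 0.00128), Plod1, a collagen lysyl hydroxylase (0.46 ± 0.05 SE, edgeR adjusted p = 0.00133), and Fkbp10, a collagen chaperone (0.61 ± 0.10 SE, edgeR adjusted p = 0.00726).

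Of 6 further basement membrane genes, 3 were called higher and 1 lower. Nid2, the second nidogen, had 16.9 and 15.7 CPM in CTL, 30.7 in KO1 and 42.4 in KO3, a log2 fold change of 1.16 ± 0.16 (SE, edgeR adjusted p = 0.0027). Pxdn, the peroxidasin that forms sulfilimine crosslinks in collagen IV, rose from 588 and 593 CPM to 965 and 909, by 0.67 ± 0.05 on the log2 scale (SE, edgeR adjusted p = 0.000298). Lama2 rose from 8.20 and 7.95 CPM to 14.9 and 17.2. Lama5, the alpha chain of another vascular laminin, fell from 151 and 142 CPM to 104 in KO1 and 114 in KO3 (log2 fold change -0.43 ± 0.07 SE, edgeR adjusted p = 0.00632), the same direction as Lama4. The edgeR adjusted p-values of Nid2, Pxdn, Lama2 and Lama5 without CTL1 or CTL2 were above the threshold, the lowest being 0.0628 for Pxdn.

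Called falls among the rest included matricellular and fibre-associated genes. Ccn2, the connective tissue growth factor of fibrotic tissue, was at 179.6 and 178 CPM in CTL, 75.9 in KO1 and 90.2 in KO3, lower by 1.11 ± 0.09 on the log2 scale (SE, edgeR adjusted p = 0.000323). Its relative Ccn1 fell from 208 and 208 CPM to 109 and 131, and Fbln2, which binds elastic fibres and basement membranes, from 196 and 199.9 to 143 and 125. Mmp8, Col12a1 and Tgm2 were called lower as well, while Thbs2, Adamts1 and Adamts4 were called higher. Mmp8 and Col12a1 were not called by DESeq2 (adjusted p = 0.0709 and 0.0621), and these 2 genes, Tgm2 and Adamts1 were not called without the filter on low counts (edgeR adjusted p between 0.0554 and 0.0987). Adamts4, an aggrecanase, went from 43.9 and 38.6 CPM to 83.9 and 80.3, a log2 fold change of 0.99 ± 0.08 (SE, edgeR adjusted p = 0.000336), and was the 1 gene among the 51 called whichever library was omitted (edgeR adjusted p of 0.0371 without CTL1 and 0.0453 without CTL2). The other 15 called genes of this list, P4ha1, Plod1 and Fkbp10 included, passed in neither of these fits. Ccn2 missed the threshold without CTL1 (edgeR adjusted p = 0.0504) and without CTL2 (edgeR adjusted p = 0.0501).

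The P1KO libraries differed from each other by at least 0.4 on the log2 scale for 12 of the 36 genes, whereas the CTL libraries differed by at most 0.27, for Tnc. How many of all tested genes differed as much was not counted, so the 12 are a description. In 6 of the 12, KO3 was the higher, and in 6 the lower. Col1a1, Col6a3, Col15a1, Col18a1, Mmp2 and Lum were higher in KO3. Col3a1, Col5a2, Fn1, Vcan, Timp1 and Mmp9 were higher in KO1. Of the 12 genes, 8 were not called and their groups overlapped, both of which a wide P1KO pair makes more likely. Lum was 1.74 times as high in KO3 as in KO1, Mmp2 1.64 times and Col6a3 1.62 times.

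Whether a library was left out therefore decided several results. Without KO1, Col3a1 and Fn1 were called lower and Col6a2, Col6a3, Lamb1, Mmp2 and Lum higher. Without KO3, Col15a1 and Col18a1 were called lower, Col6a2, Lamb1, Timp2 and Postn higher, and Col6a3 turned to a call in the lower direction, with a log2 fold change of -0.22. These fits took their spread from the close CTL pair alone.

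**Figure D4:**
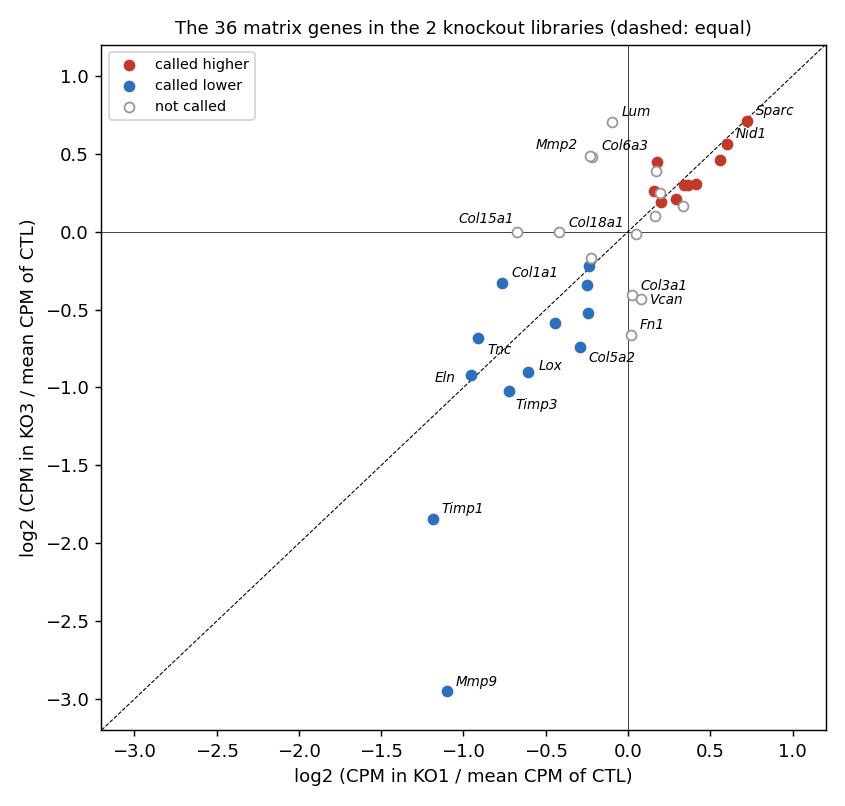
Log2 ratio to the CTL mean in KO1 (horizontal axis) against KO3 (vertical axis) for the 36 genes, with the dashed line marking equal values. Sparc, Nid1 and Eln lie near the line, Mmp9 and Timp1 lie below it, and Lum, Mmp2 and Col6a3 lie above it, between lower in KO1 and higher in KO3.

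Summed over the 36 genes, reads made up 1.57% of the counts in each CTL library, 1.82% in KO1 and 1.78% in KO3. A sum is weighted toward its most-read genes, here Sparc, Col4a1 and Hspg2. Basement membrane genes summed to 5453 and 5424 CPM in CTL and to 6680 and 6653 in P1KO, 22.8% and 22.3% above the CTL mean. Fibrillar collagens summed to 1754 and 1745 CPM in CTL, 1555 in KO1 and 1339.9 in KO3, and the inhibitors to 888 and 928 in CTL, 603 in KO1 and 506 in KO3. Proteoglycans stayed between 1538 and 1589 CPM in all 4 libraries. With 2 libraries per group an exact permutation test of a sum cannot go below p = 0.333, so the sums are a description.

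Stellate cell markers did not move as a block. Of 10 stellate cell and fibroblast markers, Rgs5 and Pdgfrb were called higher, Lrat and Acta2 lower, and 6 were not called. Their sum was 501 and 504 CPM in CTL, 613 in KO1 and 654 in KO3. Rgs5 had the largest fitted rise of the list. Without it, the other 9 summed to 360 and 363 CPM in CTL, 328 in KO1 and 369 in KO3. Lrat, Acta2 and Pdgfrb stayed in that sum. Acta2, the smooth muscle actin of myofibroblasts, had 18.2 and 18.9 CPM in CTL and 7.95 and 9.04 in P1KO (edgeR adjusted p = 0.00142). All 3 cholangiocyte markers, Krt19, Epcam and Sox9, were called lower, with a sum of 99.3 and 103 CPM in CTL against 45.6 and 47.4 in P1KO. Of the 10 endothelial markers, 5 were called higher and 2 lower, and their sum was 20332 and 20103 CPM in CTL, 23654 in KO1 and 25098 in KO3. The rise of that sum is mostly Stab1 and Stab2. Stab1 had a mean of 3620.5 CPM in CTL and 5721 in P1KO, and Stab2 of 2742 and 4614. Lyve1 and Clec4g were the 2 called lower, and Pecam1, Tek and Gata4 were not called.

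The 9 macrophage markers summed to 1269 and 1290 CPM in CTL, 1107 in KO1 and 736 in KO3. That sum is mostly Lyz2, which neutrophils and monocytes also express and which was called lower. Of the 9, 3 were called higher, 1 lower and 5 were not called. The Kupffer cell genes Clec4f, Cd5l and Vsig4 were the ones called higher. In KO1 and KO3, Clec4f stood at 15.409 and 5.405 of its CTL mean, Cd5l at 9.15 and 4.5, and Vsig4 at 9.933 and 4.181. Timd4 and Marco of the same list were not called. Timd4 stood at 1.756 of its CTL mean in KO1 and 0.826 in KO3, and Marco at 2.182 and 0.885. The 7 hepatocyte markers summed to 1061 to 1215 CPM in all libraries, with 1 called higher and 1 lower. Of the 23 markers called over all these lists, neutrophil markers included, 2 stayed called without CTL1 and without CTL2, and they were Rgs5 and Krt19. The part of stellate, cholangiocyte, macrophage or hepatocyte RNA in the matrix changes was not tested.

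**Figure D5:**
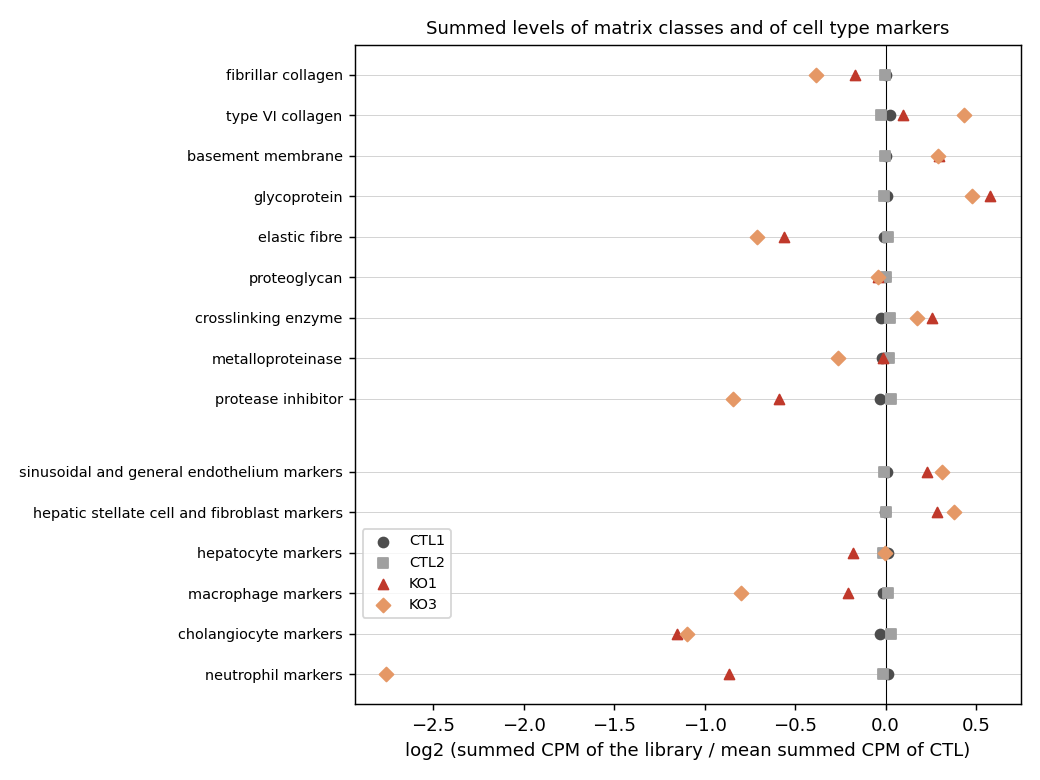
Log2 ratio of the summed CPM of each class of matrix genes (upper rows) and each marker list (lower rows) to its CTL mean, in each library. Basement membrane genes lie to the right of 0 and protease inhibitors and elastic fibre genes to the left in both P1KO libraries, and neutrophil and cholangiocyte markers lie to the left as well.

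The closest neighbouring genes of the set had fitted changes of the same sign. Besides Col4a1 and Col4a2, these were Col6a2 and Col6a1 on chromosome 10 (0.28 and 0.32 on the log2 scale, 85161 bases apart), Dcn and Lum on chromosome 10 (0.25 and 0.36, 47337 bases apart), and Col3a1 and Col5a2 on chromosome 1 (-0.18 and -0.50, 24624 bases apart). Of each of these 3 pairs, 1 gene was called and the other was not. Farther off on chromosome 10, Col18a1 is the next gene of the set after Col6a1, and its fitted change was of the opposite sign (-0.197). Col6a1 ends at 76726044 and Col18a1 starts at 77052178. The signs of Col3a1 and Lum each rested on KO3, since in KO1 both lay within or beside the range of the controls. Distances are between RefSeq gene spans of GRCm38.p6.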

How the data were processed

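The authors deposited 1 table of raw read counts, whole numbers per Ensembl gene, with 4 columns (CTL1, CTL2, KO1, KO3). All were used and 0 were left out. HISAT2 2.0.5 and featureCounts 1.5.0-p3 were used with build mm10, beside fastp and CASAVA, per the submitters' processing notes. Annotation release and strand setting: not given in the sources used here. KO3 matches no numbered title and was placed in P1KO by its name.

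Of the identifiers, 0 matched the RefSeq table (GRCm38.p6, the assembly of mm10). Symbols come from knowledge of the identifiers and were not checked. Coordinates were looked up by symbol. The members and lists were chosen with earlier results of these data known, and the neutrophil markers after the values were seen.

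Counts were tested with edgeR 4.0.16 in R 4.3.3 (filterByExpr, TMM, quasi-likelihood F-test, no covariate, Benjamini-Hochberg adjustment over 15510 genes), and the script was tested on simulated data. Standard errors are the absolute log2 fold change divided by the square root of F, and levels are TMM-scaled CPM. All 36 members are named. The other matrix genes named are the 9 called higher and the 7 called lower, where at most 8 per direction had been planned. Markers besides Alb, Lrat, Clec4f, Stab2 and Myh6 were named after their values were seen. Alternatives were DESeq2 1.42.0, limma-voom (limma 3.58.1), other scalings, filters and a 1.5-fold minimum, and each library left out over the same genes. CPM differences between KO1 and KO3 used a prior count of 2.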

Additional observations from a re-analysis of the deposited data

How the results depend on the processing

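DESeq2 size factors, library totals, DESeq2 and limma-voom, also with its spread fitted per group, kept every count of calls within 1.5 times, with 19 to 24 of the 36 matrix genes called. Without a filter on low counts 1633 genes were called over the whole table in place of 3027, and 15 of the 36. Against a minimum change of 1.5-fold 270 genes passed, with 3 of the 36 (1 higher, 2 lower) and 2 of the other matrix genes. Leaving out 1 library gave 120 to 5391 calls over all genes, 1 to 29 of the 36 (0 to 15 higher, 1 to 15 lower) and 1 to 27 of the other matrix genes. A lone library was assumed to vary like the other group. All 22 called genes kept their direction in every alternative. Col6a3, not called in the full fit at 0.17, was called at -0.22 without KO3 and at 0.48 without KO1. No paired analysis was possible because no title carries the number in KO3, which leaves its control partner unknown. The scarcest value of the 36 genes was 110 reads, and 2 libraries per group limit every call.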
